A study of Mus musculus with 18 samples.

Results

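The genes described here drive DNA replication and mitosis. They are the 48 symbols of a list of cell cycle genes, of which 21 are used at the passage from G1 to S phase and during S phase (G1/S genes) and 27 at the passage from G2 to M phase and in mitosis (G2/M genes). A gene was taken as measured where at least 1 probe set of the array carries its symbol and no other, and the brightest such probe set stood for it. That left 47 of the 48, all 21 G1/S genes and 26 of the 27 G2/M genes, of 19938 symbols read in this way from 35557 probe sets. Ccnb1 had no such probe set and was not analysed here.

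The arrays hold RNA of immortalized mouse embryonic fibroblasts from the ICR strain. All cells were infected for 2 h with an adenovirus that carried either a scrambled RNA (SCR), a short hairpin RNA against HSF1, the main transcription factor of the heat shock response (HSF1-KD), or one against SSBP1, a mitochondrial single-stranded DNA binding protein (SSBP1-KD). After another 70 h in normal medium, cells were kept at 37 °C (Cont) or placed at 42 °C for 1 h (HS), which gave 6 groups of 3 arrays. There was no uninfected group, so every difference below lies between infected cells, and no source used here says whether the 3 arrays of a group came from separate cultures: p-values measure the spread between these arrays, which may be technical. Values are log2 signals, so a difference of 1 is a doubling, and the number of arrays limits their precision.

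In cycling cells these genes are switched on in waves. The G1/S wave is driven by E2F transcription factors once cyclin D and cyclin E kinases inactivate the retinoblastoma proteins, and it supplies the MCM helicase, its loaders CDC6 and CDT1, the sliding clamp PCNA and the enzymes that make deoxynucleotides. The G2/M wave, driven by the MuvB complex with B-MYB and FOXM1, supplies cyclin B, the mitotic kinases, the spindle and the machinery that ends mitosis. Its promoters are known for a short element named CHR (cell cycle genes homology region), often placed beside CCAAT boxes to which NF-Y binds, while those of the G1/S wave are known for E2F sites.

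The letters of the promoters differed between the waves. RefSeq windows from 250 bases before to 50 bases after the annotated start (mouse build GRCm38.p6) were held for 37 of the 47 measured genes, as 40 windows. They were searched on both strands for CHR (TTTGAA or TTCGAA), for the letters CCAAT, and for E2F sites (TTTCGCGC, TTTGGCGC or TTTCCCGC). CHR was found in 18 of 21 G2/M windows (85.7%) and in 4 of 19 G1/S windows (21.1%), against 17.6% of 21263 windows of protein-coding genes. E2F sites were found in 9 of 19 G1/S windows (47.4%) and in 1 of 21 G2/M windows (4.76%), that of Cdk1, against 2.41% of protein-coding windows. CCAAT was found in 73.7% of G1/S and 90.5% of G2/M windows, against 38.2%. A heat shock element, here 3 GAA units in alternating orientation with 2 free bases between neighbours, was found in none of the 40 windows and in 0.517% of protein-coding windows. A match is a string of letters, not a tested site, and the search says nothing of more distant sequence.

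Windows of 7 of the genes called with heat in SCR are shown as examples of the letters common in each wave, 5′ to 3′ on the strand of the gene, with CHR, CCAAT and E2F matches in capitals. The first 4 belong to G2/M genes that fell with heat in SCR and hold CHR and CCAAT. The last 3 belong to G1/S genes that hold E2F sites and CCAAT, of which Mcm3 and Mcm6 rose and Cdc25a fell. Fbxo5, a G1/S gene that fell with heat and is not shown, holds CHR and CCAAT and no E2F match. Rrm1 and Tyms, also G1/S genes that fell, hold no E2F match, and Cenpe, a G2/M gene that rose, holds no CHR.
Ccnf (chr17:24251360-24251659, minus strand): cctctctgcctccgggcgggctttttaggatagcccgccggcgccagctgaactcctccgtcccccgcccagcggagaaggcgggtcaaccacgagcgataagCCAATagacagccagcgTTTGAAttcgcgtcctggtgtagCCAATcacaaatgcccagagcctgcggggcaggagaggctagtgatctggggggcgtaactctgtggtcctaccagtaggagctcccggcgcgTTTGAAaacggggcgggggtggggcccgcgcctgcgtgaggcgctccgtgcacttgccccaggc
Mki67 (chr7:135716330-135716629, minus strand): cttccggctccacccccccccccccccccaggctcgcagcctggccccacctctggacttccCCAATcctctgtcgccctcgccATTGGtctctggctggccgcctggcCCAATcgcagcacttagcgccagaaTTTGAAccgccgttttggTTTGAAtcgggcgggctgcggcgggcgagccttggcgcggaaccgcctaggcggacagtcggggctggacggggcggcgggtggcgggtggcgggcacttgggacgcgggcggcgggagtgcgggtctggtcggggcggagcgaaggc
Cdc20 (chr4:118437294-118437593, minus strand): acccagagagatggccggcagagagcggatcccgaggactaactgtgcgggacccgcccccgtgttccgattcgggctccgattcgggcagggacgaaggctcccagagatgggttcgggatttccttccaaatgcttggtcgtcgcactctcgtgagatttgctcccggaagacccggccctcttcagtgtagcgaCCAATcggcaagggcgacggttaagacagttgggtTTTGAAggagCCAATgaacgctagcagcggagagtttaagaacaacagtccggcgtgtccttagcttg
Plk1 (chr7:122159185-122159484, plus strand): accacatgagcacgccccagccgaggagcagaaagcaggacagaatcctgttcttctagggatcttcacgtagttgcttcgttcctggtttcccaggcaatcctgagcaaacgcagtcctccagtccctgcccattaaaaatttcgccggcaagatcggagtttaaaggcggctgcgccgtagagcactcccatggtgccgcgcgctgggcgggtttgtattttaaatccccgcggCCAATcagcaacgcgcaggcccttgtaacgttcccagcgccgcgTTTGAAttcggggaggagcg
Mcm3 (chr1:20820263-20820562, minus strand): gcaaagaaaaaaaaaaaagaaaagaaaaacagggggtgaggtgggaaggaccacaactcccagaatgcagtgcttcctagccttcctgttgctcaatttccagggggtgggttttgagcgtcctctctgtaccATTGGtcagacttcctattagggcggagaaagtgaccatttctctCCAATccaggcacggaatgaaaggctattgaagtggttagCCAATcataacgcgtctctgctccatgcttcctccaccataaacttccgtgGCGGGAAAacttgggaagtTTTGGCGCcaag
Mcm6 (chr1:128359656-128359955, minus strand): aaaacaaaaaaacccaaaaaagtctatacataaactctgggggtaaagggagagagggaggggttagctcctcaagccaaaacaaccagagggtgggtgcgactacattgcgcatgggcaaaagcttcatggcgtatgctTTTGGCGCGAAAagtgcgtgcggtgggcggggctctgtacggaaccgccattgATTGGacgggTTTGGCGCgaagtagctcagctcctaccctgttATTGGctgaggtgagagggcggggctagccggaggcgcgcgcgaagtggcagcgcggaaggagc
Cdc25a (chr9:109875329-109875628, plus strand): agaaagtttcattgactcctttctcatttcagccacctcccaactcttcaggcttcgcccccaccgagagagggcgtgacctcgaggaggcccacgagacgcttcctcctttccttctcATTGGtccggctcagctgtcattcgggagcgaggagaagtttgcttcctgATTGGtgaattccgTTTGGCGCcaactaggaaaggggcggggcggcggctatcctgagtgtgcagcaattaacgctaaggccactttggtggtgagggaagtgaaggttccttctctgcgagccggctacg

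Within the window the CHR matches of the G2/M genes lay close to the start. Of 26 such matches, 17 began between 50 bases upstream and 50 bases downstream of it (65.4%), against 22.4% of the 4271 CHR matches in all protein-coding windows. A match in that stretch was present in 17 of 21 G2/M windows (81.0%), against 4.35% of protein-coding windows. The 2 windows of Prc1 overlap and share a match, and in Mcm5 and Mcm6 a pair of E2F matches overlap each other.

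**Figure D1:**
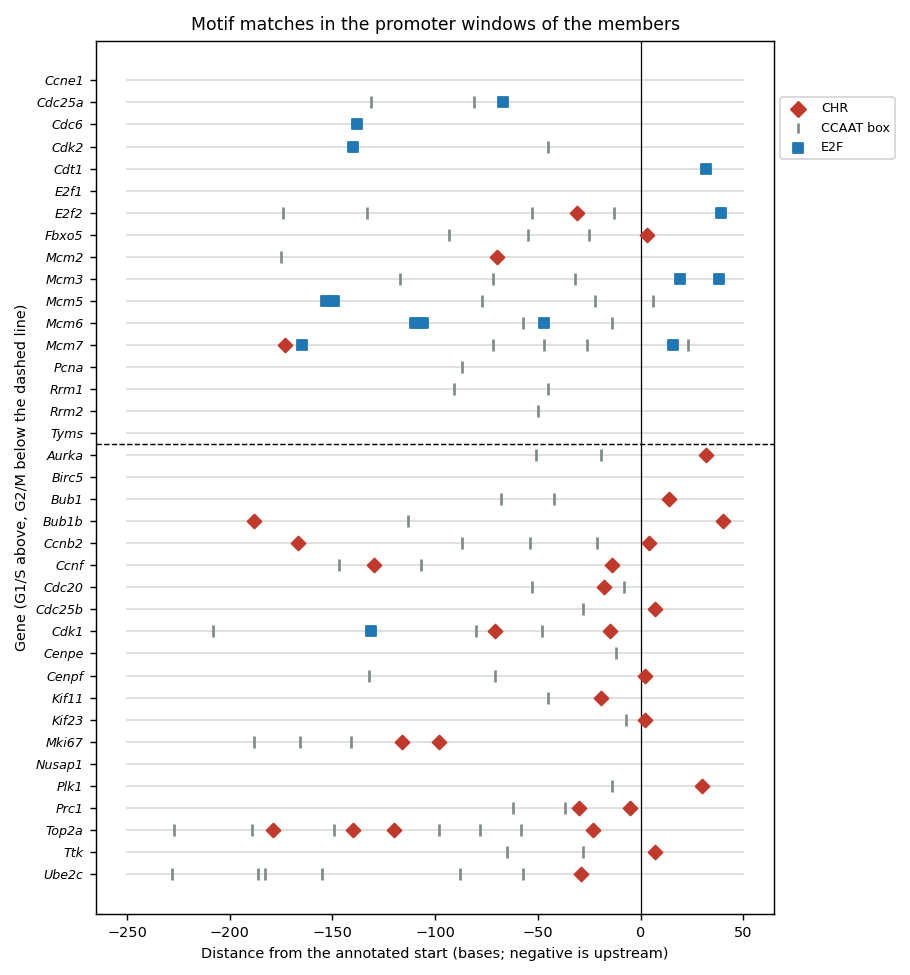
Positions of CHR (red diamonds), CCAAT (grey ticks) and E2F matches (blue squares) in the promoter windows of 37 genes, as distance of the first base of the match from the annotated start in bases; genes with 2 windows have them on 1 line. CHR matches lie within 50 bases of the start in 17 of 21 windows of the lower, G2/M part and E2F matches lie almost wholly in the upper, G1/S part (9 of 19 windows).

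The cells carried fibroblast genes. Of 10 fibroblast markers 9 lay above the median of all symbols (8.21), as did 1 of 5 epithelial, 1 of 3 blood and none of 3 endothelial, 2 muscle, 2 neural and 2 pluripotent markers. Ssbp1 itself stood at 9.54, 9.36 and 9.36 in SCR Cont and at 9.02, 9.25 and 9.32 in SSBP1-KD Cont, a difference of -0.22 that did not pass the test (limma, adjusted p = 0.0555). In HS it stood at 9.07, 9.09 and 9.03 in SCR and at 8.71, 8.57 and 8.67 in SSBP1-KD, a difference of -0.41 (limma, adjusted p = 0.00155). From Cont to HS Ssbp1 fell by 0.36 in SCR, 0.29 in HSF1-KD and 0.55 in SSBP1-KD (limma, adjusted p = 0.00614, 0.0203 and 0.000642). These are RNA signals, and SSBP1 protein is not measured by the arrays. Hsf1 has no probe set with its symbol alone and was not analysed here. Hspa1a, which encodes an inducible HSP70, rose with heat by 4.31 in SCR, by 0.55 in HSF1-KD and by 3.42 in SSBP1-KD. One array stood apart, replicate 1 of SSBP1-KD Cont, whose probe sets lay on average 0.152 from their group means, against 0.070 to 0.110 on the other 17.

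The cell cycle genes were bright on these arrays, from the 45th percentile of all symbols (Gmnn, at 7.91) to the 99th (Ccna2, at 12.79). Bright probe sets were called more often than dim ones, so each count below stands beside the share of all 19938 symbols and beside that of the 10985 symbols whose probe set is above the median brightness of all probe sets (the brighter symbols). A gene was called higher or lower at an adjusted p under 0.05 (limma, Benjamini-Hochberg over all probe sets).

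**Figure D2:**
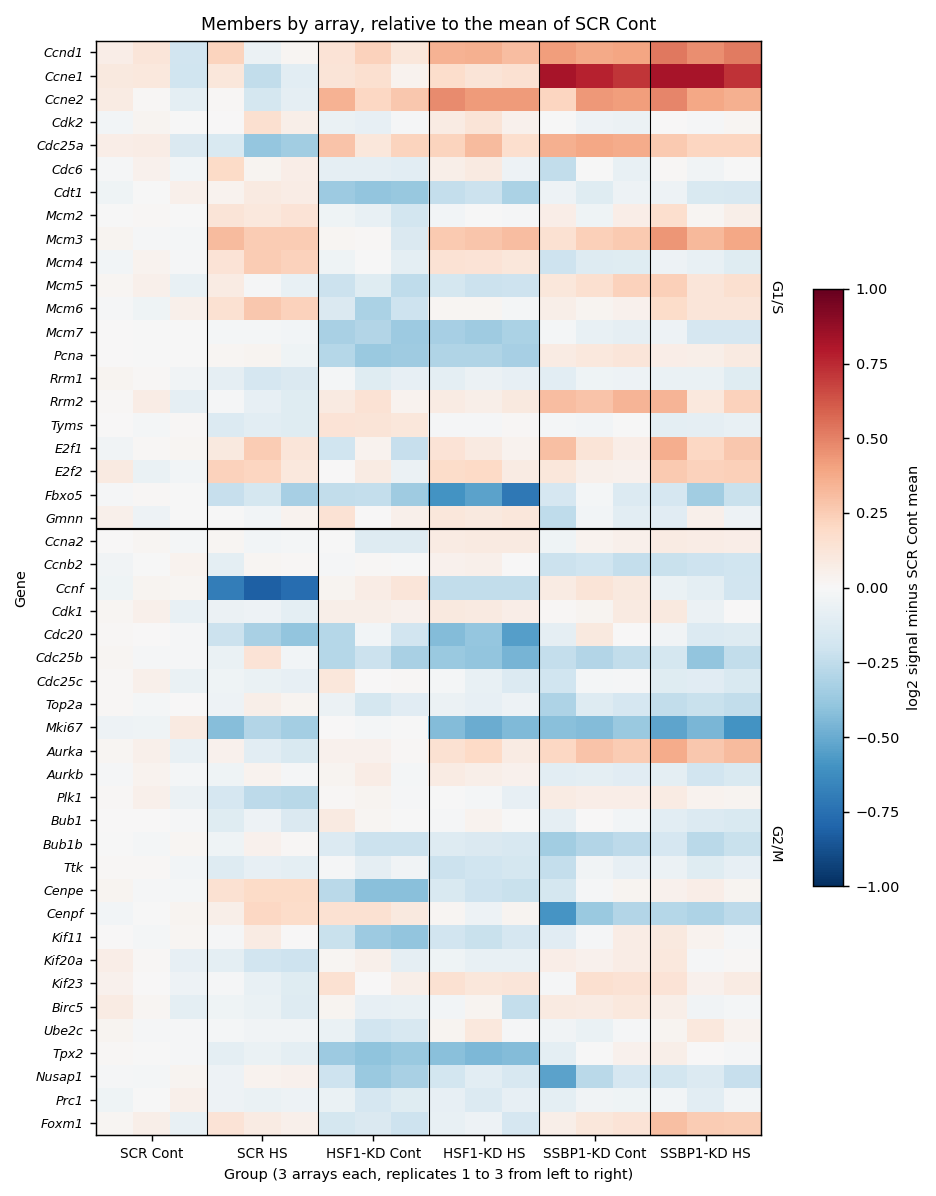
Log2 signal of the 47 measured genes on the 18 arrays, minus the gene's mean in SCR Cont; red is higher and blue lower, genes are in rows (21 G1/S above, 26 G2/M below the line) and arrays in columns by group. The darkest cells are those of Ccnf, at -0.76 on average in SCR HS, and of Ccne1 in the SSBP1-KD groups, at 0.77 on average in SSBP1-KD Cont.

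With heat shock for 1 h in SCR cells 5 of the 26 G2/M genes were lower, most of all the gene of cyclin F, as were 4 of the 21 G1/S genes, while heat raised 3 of the 6 subunits of the MCM helicase. Of the 47 genes, 5 were higher (10.6%) and 9 lower (19.1%). Over all symbols 7.63% were higher and 8.34% lower, and in the brighter symbols 12.1% and 13.0%. By wave, 4 G1/S genes were higher (19%) and 4 lower (19%), with a median difference of 0.00, and 1 G2/M gene was higher (3.85%) and 5 lower (19.2%), with a median of -0.06. The median over all symbols was -0.01. In RNA of whole cultures, fewer cells in a phase of the cycle and less RNA per cell cannot be told apart.

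Ccnf, whose product is the F-box subunit of an SCF ubiquitin ligase and rises to a peak in G2, had signals of 10.96, 11.04 and 11.02 in SCR Cont and of 10.32, 10.19 and 10.25 in SCR HS. No HS array came near the Cont arrays, and the fall of 0.76 (SE 0.04, 1.69-fold) was the widest change with heat of all 47 genes in SCR (limma, adjusted p = 4.57e-08). Mki67, which encodes the Ki-67 protein that coats mitotic chromosomes, had signals of 12.13, 12.13 and 12.27 in Cont and of 11.75, 11.89 and 11.84 in HS. It fell by 0.35 (SE 0.05, adjusted p = 0.000208). Cdc20, the mitotic activator of the anaphase-promoting complex, had signals of 10.54, 10.53 and 10.52 in Cont and of 10.31, 10.21 and 10.14 in HS, and fell by 0.31 (SE 0.07, adjusted p = 0.00618). Plk1, the polo kinase of mitotic entry and spindle assembly, fell by 0.24 (SE 0.04), and Kif20a, a kinesin of the central spindle, by 0.17 (SE 0.05). The HS arrays did not overlap the Cont arrays in these 5 genes, which were picked by their calls in the same comparison. That adds no support to the calls, and in Kif20a the gap was narrow, from 11.57 in Cont to 11.56 in HS. The partners of these genes did not all move: Aurka, Aurkb, Cdk1, Ccna2, Ccnb2 and Bub1 differed by -0.07, -0.01, -0.07, -0.01, -0.02 and -0.11 and none passed the test.

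Among the G1/S genes that were lower, Cdc25a encodes the phosphatase that frees CDK2 from its inhibitory phosphates. Its signals were 10.81, 10.82 and 10.60 in SCR Cont and 10.60, 10.36 and 10.40 in SCR HS, a fall of 0.29 (SE 0.07, adjusted p = 0.0104) in which the lowest Cont array and the highest HS array lay side by side. The other CDC25 genes did not pass, with differences of 0.01 (Cdc25b) and -0.06 (Cdc25c). Fbxo5, whose product EMI1 holds back the anaphase-promoting complex during S phase, fell by 0.24 (SE 0.06). Rrm1 and Tyms, enzymes of deoxynucleotide supply, fell by 0.13 and 0.12.

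The MCM subunits, which form 1 ring-shaped helicase of 6 different proteins, did not move as a unit. Mcm3 had signals of 10.80, 10.76 and 10.76 in SCR Cont and of 11.09, 11.03 and 11.03 in SCR HS, and rose by 0.28 (SE 0.05, adjusted p = 0.00133). Mcm6 rose by 0.22 (SE 0.05, adjusted p = 0.00536) and Mcm4 by 0.21 (SE 0.04, adjusted p = 0.0044). Mcm2 was at 0.12, Mcm5 at -0.0035 and Mcm7 at -0.02, none of them past the test. E2f2, an activating E2F factor, rose by 0.19 (SE 0.05), and Cenpe, a kinetochore motor and the only G2/M gene that rose, by 0.18 (SE 0.05). The calls of Cdc25a, Rrm1, Tyms, E2f2, Fbxo5, Cenpe and Kif20a were each lost when single arrays were left out (highest adjusted p 0.0563, 0.128, 0.0519, 0.13, 0.0785, 0.101 and 0.174), so the counts ran from 3 to 4 higher and from 5 to 8 lower, with 3 higher without replicate 2 or 3 of SCR Cont or 1 or 2 of SCR HS, and 5 lower without replicate 1 or 2 of SCR Cont.

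Genes of the same processes outside the list were read in the same way, against 12.1% higher and 13.0% lower among the brighter symbols (7.63% and 8.34% of all symbols). Of 50 other mitosis genes, 13 were lower (26%) and none higher with heat in SCR (median -0.08), with Troap, a spindle-associated protein, at -0.52, Cdca2, a chromatin-bound phosphatase subunit, at -0.42, and the kinesins Kif18a and Kif2c at -0.26 and -0.25. Of 41 other replication genes, 4 were higher (9.76%) and 2 lower (4.88%), both below the brighter symbols (median 0.02), with Chek1, the kinase of the replication checkpoint, at 0.30, Rpa2 at 0.25, Mcm10 at 0.24 and Tk1, thymidine kinase, at -0.40. Of 17 measured brakes of the cycle 2 were higher (11.8%), Gadd45a at 0.48 and Tob1 at 0.16. Of 7 genes that drive G1, Myc (0.51) and Ccnd2 (0.24) were higher (28.6%). The other mitosis genes did not fall as 1-sidedly in the knockdowns. With heat in HSF1-KD 6 of the 50 were higher (12%) and 9 lower (18%), with a median of -0.01. The brighter symbols gave 17.3% and 16.5% there, and all symbols 10.6% and 10.8%. With heat in SSBP1-KD 0 were higher and 2 lower (4%), against 6.62% and 3.55% of the brighter symbols and 4.08% and 2.82% of all.

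With heat in HSF1-KD cells, 7 of the 47 genes were higher (14.9%) and 6 lower (12.8%), against 10.6% and 10.8% of all symbols. Both shares lay below those of the brighter symbols (17.3% and 16.5%). Mki67 fell by 0.45 (SE 0.05, adjusted p = 3.23e-05), from 12.18, 12.15 and 12.17 to 11.74, 11.68 and 11.74. Fbxo5 fell by 0.34, Ccnf by 0.32 and Cdc20 by 0.29. Ttk, the kinase that starts the spindle checkpoint, and Tyms fell by 0.15 and 0.13. Mcm3 rose by 0.32, Mcm6 by 0.23 and Mcm4 by 0.18, and Mcm7 was again near 0 (-0.01). Ube2c, the ubiquitin-conjugating enzyme of the anaphase-promoting complex, rose by 0.18, Ccna2, cyclin A2, by 0.17, Cenpe by 0.17 and Cdk2 by 0.14. Cdc25a, Plk1, Kif20a and Rrm1, lower with heat in SCR, were at 0.03, -0.04, -0.06 and -0.0042 here and did not pass. The calls of Cdk2, Ttk and Cenpe were lost without single arrays (highest adjusted p 0.137, 0.106 and 0.127), and counts ran from 5 to 8 higher and from 5 to 6 lower.

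In SSBP1-KD cells 3 of the 47 genes passed the test with heat, 2 higher (4.26%) and 1 lower (2.13%), against 4.08% and 2.82% of all symbols and 6.62% and 3.55% of the brighter symbols. Ccnf fell by 0.22 (SE 0.04, adjusted p = 0.00629), from 11.09, 11.14 and 11.11 to 10.94, 10.91 and 10.82. Mcm3 rose by 0.17 (adjusted p = 0.0497) and Foxm1, the G2/M transcription factor, by 0.17 (adjusted p = 0.0369). Without single arrays Mcm3 and Foxm1 lost their call (highest adjusted p 0.179 and 0.129), and neither passed without replicate 1 or 2 of SSBP1-KD Cont or replicate 1 or 3 of SSBP1-KD HS. Mki67, Cdc20 and Fbxo5 were at -0.12, -0.10 and -0.13, and Mcm4 and Mcm6 at 0.07 and 0.10, none of them past the test.

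**Figure D3:**
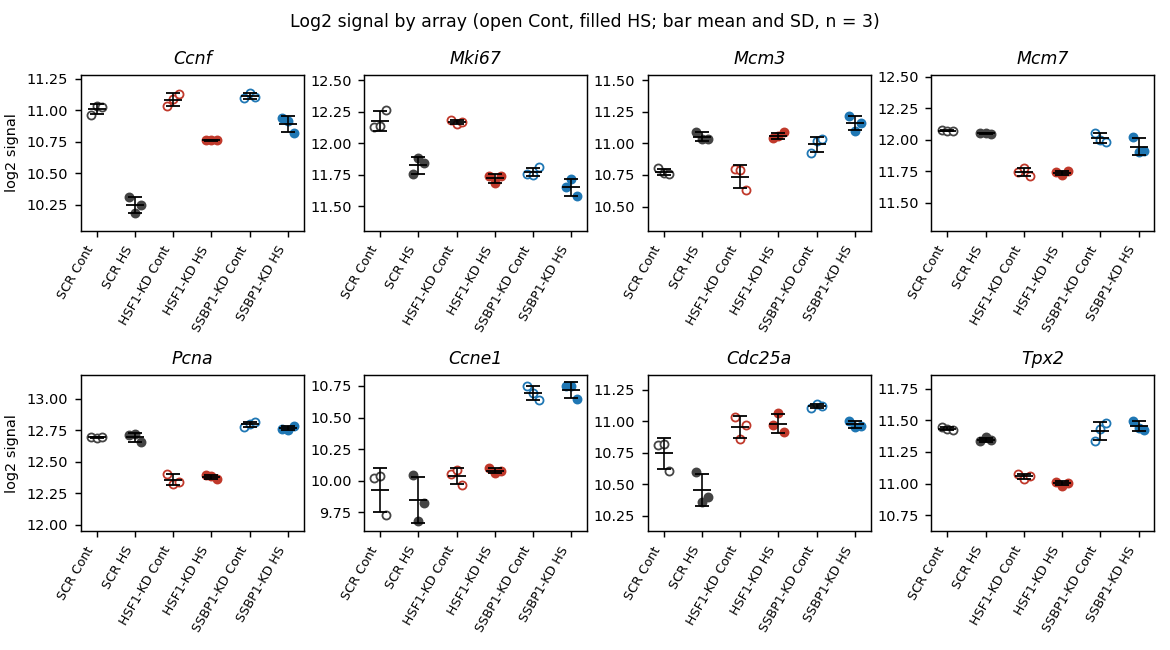
Log2 signal of 8 genes on every array, by group (open circles Cont, filled circles HS; bars show mean and SD, n = 3); each panel spans the same height in log2 units and none starts at 0. Ccnf drops from 11.01 to 10.25 in SCR with smaller steps in the knockdowns, Pcna, Mcm7 and Tpx2 are low in both HSF1-KD groups, and Ccne1 is high in both SSBP1-KD groups.

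Whether the heat response itself differed between kinds of cell was tested as a difference of differences. Of the 47 genes only Ccnf passed (2.13%), and it passed in both tests, which share the 6 SCR arrays. Its fall was smaller by 0.43 in HSF1-KD than in SCR (SE 0.06, adjusted p = 0.00403) and smaller by 0.54 in SSBP1-KD than in SCR (SE 0.06, adjusted p = 0.000809). In HSF1-KD its signals were 11.03, 11.09 and 11.13 in Cont and 10.76, 10.76 and 10.76 in HS. The 3 groups of Cont arrays lay between 10.96 and 11.14, and the HS arrays between 10.19 and 10.32 in SCR, at 10.76 in HSF1-KD and between 10.82 and 10.94 in SSBP1-KD, so the kinds of cell lay much farther apart in HS than in Cont. The differences kept their call under every alternative tried, with adjusted p from 0.000767 to 0.0211 for HSF1-KD and from 0.000114 to 0.0163 for SSBP1-KD. Among all symbols 0.01% had a higher and 0.336% a lower heat response in HSF1-KD than in SCR, and 0.181% and 0.311% in SSBP1-KD. Among the brighter symbols these shares were 0.0182% and 0.583% in HSF1-KD, and 0.31% and 0.528% in SSBP1-KD. At an unadjusted p under 0.05, 8 of the 47 had a higher and 1 a lower response in HSF1-KD, and 4 and 1 in SSBP1-KD. The share of all symbols at that unadjusted threshold was not computed, so no excess can be read from these counts.

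Cells with the hairpin against HSF1 had lower signals of 14 genes, of both waves, without heat. In Cont, 2 of the 47 genes were higher (4.26%) and 14 lower (29.8%) than in SCR, against 10.9% and 10.1% of all symbols and 15.5% and 17.1% of the brighter symbols. The G1/S genes gave 2 higher and 6 lower (median -0.05) and the G2/M genes 0 higher and 8 lower (median -0.05), where the median over all symbols was 0.03. At an unadjusted p under 0.05, 4 of the 47 were higher and 18 lower, a threshold at which the share of all symbols was not computed.

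Among the 6 G1/S genes that were lower (28.6% of 21, against 30.8% of the G2/M genes), Pcna, Cdt1 and Mcm7 gave the smallest p. Pcna, the clamp that holds polymerases on DNA, had signals of 12.70, 12.69 and 12.69 in SCR Cont and of 12.41, 12.32 and 12.34 in HSF1-KD Cont. That is a fall of 0.34 (SE 0.04, limma, adjusted p = 1.5e-05). The other probe set of Pcna gave -0.34, but it lay within 0.0055 of the brightest on every array, so its value adds no support. Cdt1, which loads MCM rings on origins, had signals of 11.09, 11.13 and 11.18 in SCR and of 10.77, 10.74 and 10.75 in HSF1-KD, and fell by 0.38 (SE 0.04, adjusted p = 3.29e-05). Mcm7 had signals of 12.08, 12.07 and 12.07 in SCR and of 11.75, 11.78 and 11.71 in HSF1-KD, and fell by 0.33 (SE 0.04, adjusted p = 5.19e-05). The HSF1-KD arrays of all 3 genes lay well apart from the SCR arrays. These genes were picked by their p in the same comparison, so that gap adds no support to the calls. Mcm6 fell by 0.22 and Mcm5 by 0.19, while Mcm2 (-0.10), Mcm3 (-0.04) and Mcm4 (-0.05) did not pass. Mcm6 was thus the only subunit both lower here and higher with heat in SCR, in comparisons that share the SCR Cont arrays. The other origin genes, Cdc6 and the CDT1 inhibitor Gmnn, were at -0.09 and 0.07. Fbxo5 fell by 0.28. The G1/S genes that were higher were Ccne2, cyclin E2, by 0.27 and Tyms by 0.13.

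Of the G2/M genes, 3 of 7 motor and spindle genes and 2 of 5 genes of the spindle checkpoint and kinetochore were lower and none higher. Tpx2, which activates aurora A on spindle microtubules, had signals of 11.45, 11.43 and 11.42 in SCR Cont and of 11.07, 11.04 and 11.06 in HSF1-KD Cont, and fell by 0.38 (SE 0.04, adjusted p = 1.55e-05). Cenpe fell by 0.37, Kif11, the motor that pushes spindle poles apart, by 0.33, and Nusap1, a microtubule bundler, by 0.30. Cdc25b, Bub1b, Foxm1 and Ube2c fell by 0.28, 0.19, 0.18 and 0.14. The spindle and kinetochore genes Kif23, Bub1 and Cenpf were at 0.07, 0.04 and 0.14, the kinases Aurka, Aurkb and Plk1 at 0.03, 0.03 and 0.01, and Mki67 at -0.01, none of them past the test. The calls of Ccne2, Mcm5, Nusap1, Foxm1 and Ube2c were lost without single arrays (highest adjusted p 0.069, 0.0916, 0.0514, 0.0755 and 0.154), and counts ran from 1 higher, without replicate 3 of SCR Cont or 1 of HSF1-KD Cont, to 3 higher and from 11 to 15 lower.

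In HS, 9 of the 47 genes were higher in HSF1-KD than in SCR (19.1%) and 12 lower (25.5%), against 13.1% and 10.7% of all symbols and 19.9% and 17.7% of the brighter symbols. Cdt1, Mcm7, Pcna, Tpx2 and Cenpe were lower by 0.32, 0.31, 0.31, 0.35 and 0.37, close to their values without heat. Cdc25b fell by 0.42, Fbxo5 by 0.37, Kif11 by 0.22, Mcm6 by 0.21 and Mcm5 by 0.20. On the higher side Cdc25a led with 0.53 (SE 0.07, adjusted p = 9.3e-05), at 10.97, 11.06 and 10.91 against 10.60, 10.36 and 10.40 in SCR HS. Ccne2 was higher by 0.53, Ccnf by 0.51, Ccnd1, cyclin D1, by 0.27, Aurka by 0.22, Plk1 and Kif23 by 0.20 and Cdk1 by 0.15. Ccne1 was at 0.23, and Cdc25c and Aurkb at -0.02 and 0.07, not past the test. Without single arrays Ccnd1, Mcm5, Cdk1, Aurka, Bub1b, Kif11 and Kif23 lost their call (highest adjusted p 0.112, 0.0896, 0.115, 0.0571, 0.0839, 0.061 and 0.0809), and 5 genes were higher without replicate 3 of SCR HS.

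In cells with the hairpin against SSBP1, genes of the list were called in both directions. In Cont, 9 of the 47 were higher (19.1%) and 8 lower (17%) than in SCR, against 14.6% and 16.5% of all symbols and 19.9% and 27.4% of the brighter symbols. Of the G1/S genes 8 were higher (38.1%) and 1 lower (4.76%), with a median of 0.04. Of the G2/M genes 1 was higher (3.85%) and 7 lower (26.9%), the latter close to the share of the brighter symbols, with a median of -0.04. That median ran from -0.0582 to -0.00181 when single arrays were left out, and the value nearest 0 came without replicate 1 of SSBP1-KD Cont, the array that stood apart. The median over all symbols was 0.05.

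Among the 8 G1/S genes that were higher were 3 cyclins of G1. Ccne1, cyclin E1, the partner of CDK2 at the start of S phase, had signals of 10.02, 10.04 and 9.72 in SCR Cont and of 10.75, 10.69 and 10.64 in SSBP1-KD Cont. All SSBP1-KD arrays lay above all SCR arrays, and the rise of 0.77 (SE 0.09, 1.70-fold) was the widest of the 47 genes in this comparison (limma, adjusted p = 1.86e-05). Ccne1 was picked for that rise, so the gap between its arrays adds no support to the call. Ccnd1 rose by 0.40 (SE 0.08) and Ccne2 by 0.35 (SE 0.07), while the kinase partner Cdk2 was at -0.03. Cdc25a had signals of 11.10, 11.14 and 11.12 in SSBP1-KD Cont, above the 10.60 to 10.82 of SCR Cont, and rose by 0.37 (SE 0.07, adjusted p = 0.00123). Rrm2, the regulated subunit of ribonucleotide reductase, rose by 0.31, Mcm3 by 0.22, Mcm5 by 0.17 and Pcna by 0.10. Mcm4 fell by 0.15, and Mcm2, Mcm6 and Mcm7 were at 0.03, 0.04 and -0.06.

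Aurka, which encodes aurora kinase A, was the G2/M gene that rose, by 0.25 (SE 0.05, adjusted p = 0.00311), with Aurkb at -0.11 and not past the test. Cenpf, a kinetochore protein of G2 and mitosis, had signals of 9.97, 9.99 and 10.02 in SCR Cont and of 9.40, 9.62 and 9.70 in SSBP1-KD Cont, and fell by 0.42 (SE 0.06, adjusted p = 0.000209). The SSBP1-KD arrays spread over 0.30, with replicate 1, the array that stood apart, lowest. Mki67 fell by 0.41 (SE 0.05), with signals of 11.76, 11.74 and 11.81 against 12.13, 12.13 and 12.27 in SCR Cont. SCR cells after heat had 11.75 to 11.89. Nusap1 fell by 0.32, Bub1b, a subunit of the checkpoint complex that blocks CDC20, by 0.30, Cdc25b by 0.26, Ccnb2, cyclin B2, by 0.22 and Top2a by 0.20. The less bright probe set of Top2a gave -0.64 (limma, adjusted p = 0.0145) in Cont. Its mean signal was 6.43, against 12.19 for the brightest, and lay below the array medians of 7.88 to 7.94. The correlation of the 2 over the arrays was 0.609, so the dim probe set is weak support. Without replicate 1 of SSBP1-KD Cont 9 genes were higher and 7 lower, with the call of Mcm4 lost (adjusted p at most 0.0792 without single arrays), and those of Mcm5 and Pcna were lost without other arrays (highest adjusted p 0.15 and 0.113).

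After heat the 6 G1/S genes that were higher in SSBP1-KD than in SCR were genes also higher in Cont, and G2/M genes were called in both directions, 7 higher and 7 lower. Of the 47, 13 were higher (27.7%) and 9 lower (19.1%), against 14.3% and 14.4% of all symbols and 21.9% and 23.8% of the brighter symbols. Ccne1 had signals of 10.75, 10.75 and 10.65 against 10.04, 9.68 and 9.82 in SCR HS, and was higher by 0.87 (SE 0.09, 1.83-fold, adjusted p = 6.76e-06). Ccnf was higher by 0.64, Cdc25a by 0.52, Ccne2 by 0.50, Ccnd1 by 0.44, Aurka by 0.39, Rrm2 by 0.30 and Plk1 by 0.29. Cdc20 was higher by 0.21 and Mcm5 by 0.18. Cenpf was lower by 0.44, Cdc25b and Mcm4 by 0.29, Top2a by 0.25, Bub1b by 0.22, Cdt1 and Ccnb2 by 0.19, Mki67 by 0.18 and Aurkb by 0.14. The less bright probe set of Top2a, at a mean signal of only 6.43, gave -0.22 here (limma, adjusted p = 0.462). The call of Top2a was lost with that probe set and with the mean over its probe sets. The 2 aurora kinase genes thus passed the test in opposite directions, as did Mcm5 and Mcm4. Without single arrays Mcm5, Cdc20, Mki67, Aurkb, Kif20a and Kif23 lost their call (highest adjusted p 0.134, 0.173, 0.0938, 0.0742, 0.058 and 0.175).

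**Figure D4:**
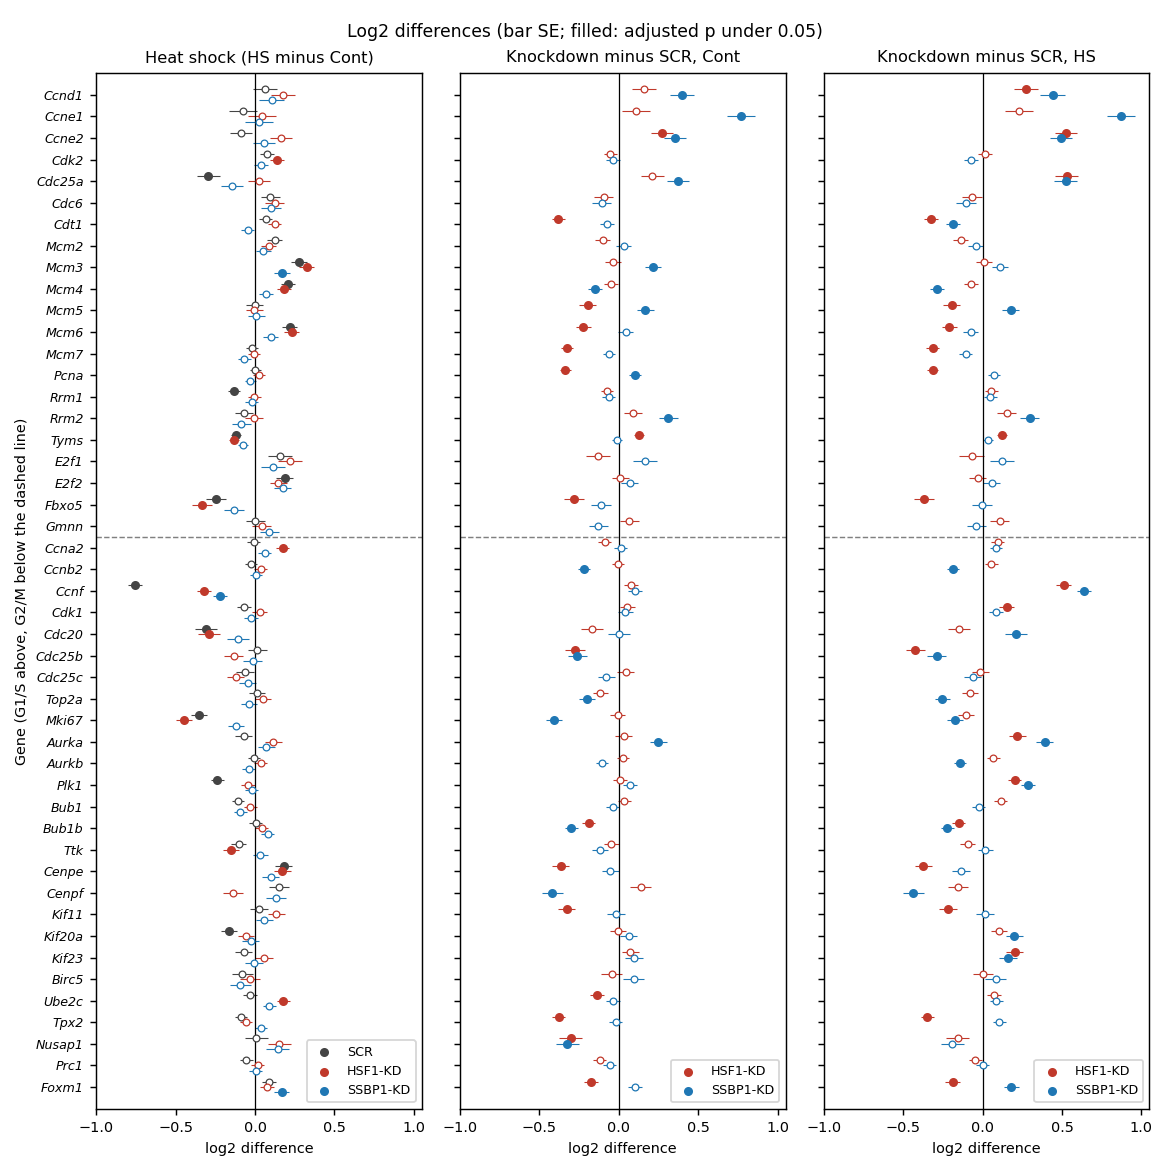
Log2 differences of the 47 genes with heat in the 3 kinds of cell (left) and between each knockdown and SCR in Cont (middle) and HS (right); bars are standard errors, filled points have an adjusted p under 0.05, and the dashed line parts G1/S genes from G2/M genes. Ccnf stands out at -0.76 with heat in SCR, Cdt1, Mcm7, Pcna and Tpx2 at -0.31 to -0.38 in HSF1-KD, and Ccne1 at 0.77 and 0.87 in SSBP1-KD.

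Set directly against each other, the knockdowns differed in 21 of the 47 genes in Cont and in 18 in HS. In Cont 15 were higher in SSBP1-KD than in HSF1-KD (31.9%) and 6 lower (12.8%), against 12.9% and 16.6% of all symbols and 20.2% and 26.6% of the brighter symbols. In HS 12 were higher (25.5%) and 6 lower (12.8%), against 11.6% and 14.1% of all symbols and 19.0% and 22.7% of the brighter symbols. Of the G1/S genes, 10 were higher and 2 lower in Cont (median 0.17) and 6 and 1 in HS (median 0.10), while the medians over all symbols were 0.02 and 0.00.

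Pcna gave the smallest p in Cont, with 12.77, 12.80 and 12.81 in SSBP1-KD against 12.41, 12.32 and 12.34 in HSF1-KD, a difference of 0.44 (SE 0.04, adjusted p = 6.01e-07). In HS it differed by 0.38. Ccne1 was higher in SSBP1-KD by 0.66 and 0.64, Mcm5 by 0.36 and 0.37, Tpx2 by 0.36 and 0.45, Foxm1 by 0.28 and 0.37, Mcm7 by 0.27 and 0.21, Kif11 by 0.31 and 0.23 and Cenpe by 0.31 and 0.24, in Cont and HS respectively. Cdt1 was higher by 0.31 and 0.14. On the other side, Cenpf was lower in SSBP1-KD by 0.56 and 0.28, Ccnb2 by 0.21 and 0.24 and Aurkb by 0.13 and 0.21, and Mki67 by 0.40 in Cont. The calls lost without single arrays were those of Ccnd1, Rrm2, E2f1, Gmnn and Aurkb in Cont (highest adjusted p 0.112, 0.0545, 0.0528, 0.118 and 0.0942) and of Cdt1, Top2a, Aurka and Bub1 in HS (0.169, 0.0643, 0.128 and 0.0955).

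Averages over all members of each wave shifted little between groups. Signals of different probe sets are not on 1 scale, so the difference between the mean of the 21 G1/S genes and the mean of the 26 G2/M genes is of use between groups only, and it is given as a description with no test. It was -0.42 ± 0.018 (SD, n = 3) in SCR Cont and -0.32 ± 0.0303 in SCR HS, and the HS arrays lay above the Cont arrays. In HSF1-KD it was -0.40 ± 0.0178 in Cont and -0.30 ± 0.00507 in HS. In SSBP1-KD it was -0.25 ± 0.0389 in Cont and -0.23 ± 0.00978 in HS, above all arrays of SCR and HSF1-KD in both states, and the Cont and HS arrays of SSBP1-KD overlapped. The parts moved differently: from SCR Cont to SCR HS the G2/M mean went from 11.20 ± 0.0143 to 11.12 ± 0.0157 with the G1/S mean at 10.78 ± 0.0323 and 10.80 ± 0.0291. From HSF1-KD Cont to HSF1-KD HS the G1/S mean went from 10.72 ± 0.0311 to 10.79 ± 0.0207 with the G2/M mean at 11.12 ± 0.0284 and 11.09 ± 0.0203. In SSBP1-KD the G1/S mean was at 10.89 ± 0.0136 and 10.91 ± 0.0354, above all arrays of SCR and HSF1-KD. The median difference of these 21 genes from SCR was 0.04 in Cont and 0.05 in HS, against 0.05 and 0.03 over all symbols. In Cont 12 of the 21 differences were positive, with the largest in Ccne1, Ccnd1, Cdc25a, Ccne2 and Rrm2. The higher G1/S mean thus rests on a few genes more than on the wave as a whole. The array that stood apart, replicate 1 of SSBP1-KD Cont, had the lowest G2/M mean of its group (11.07, against 11.16 and 11.17), and its own difference was -0.20 against -0.26 and -0.28.

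**Figure D5:**
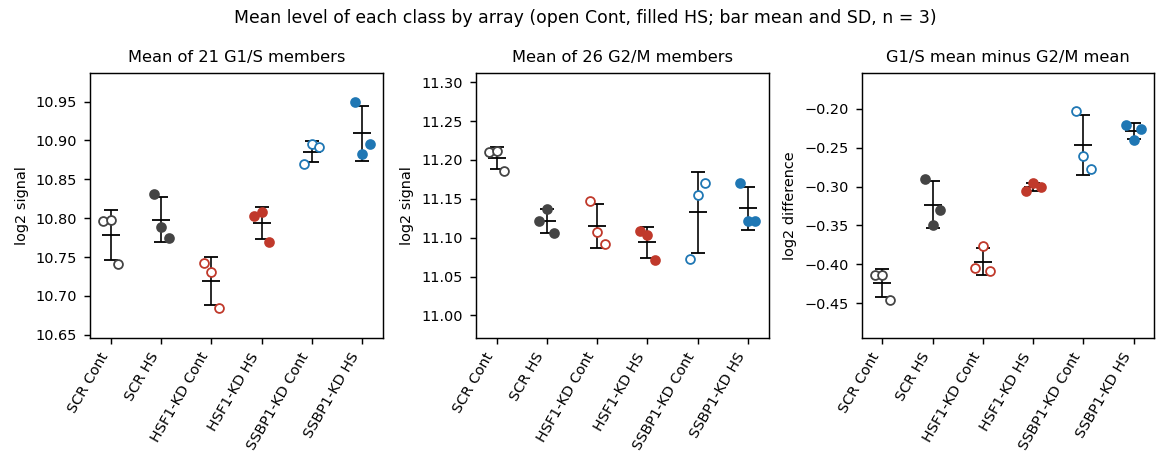
Mean log2 signal per array of the 21 G1/S genes (left), of the 26 G2/M genes (middle) and their difference (right), by group (open circles Cont, filled circles HS; bars show mean and SD, n = 3); the axes span equal heights and do not start at 0. The difference moves from -0.42 in SCR Cont to -0.32 in SCR HS and lies at -0.25 and -0.23 in the SSBP1-KD groups.

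Other genes of the cycle were read beside these. Of 17 measured brakes, 4 were lower (23.5%) and 1 higher (5.88%) in HSF1-KD than in SCR in Cont, against 15.5% higher and 17.1% lower among the brighter symbols, with Cdkn1b, the inhibitor p27, at -0.68, the atypical cyclin Ccng2 at -0.64 and Cdkn2c at -0.39. In SSBP1-KD Cont 8 were lower (47.1%) and 1 higher (5.88%), against 27.4% lower and 19.9% higher among the brighter symbols, with Ccng2 at -1.18, Cdkn1b at -0.41 and Rbl1 at -0.39 against Ccng1, a p53 target, at 0.45. Of 7 genes that drive G1, 4 were lower (57.1%) and none higher in HSF1-KD Cont (Mycn -0.49, Cdk6 -0.37, Ccnd2 -0.34, Ccnd3 -0.26), whereas 3 were higher (42.9%) and 1 lower (14.3%) in SSBP1-KD Cont (Myc 0.60, Ccnd2 0.32, E2f3 0.17 and Mycn -0.37). The directions of Ccnd2 in the knockdowns were thus opposite. Of 41 other replication genes 1 was higher (2.44%) and 8 lower (19.5%) in HSF1-KD Cont, with Lig1, DNA ligase 1, at -0.32 and the repressor E2f7 at 0.35, and 7 higher (17.1%) and 15 lower (36.6%) in SSBP1-KD Cont, with the GINS subunit Gins4 at -0.55, the polymerase subunit Pole at -0.35 and the origin protein Orc1 at 0.32. The median of these other replication genes was -0.08 in both knockdowns. Of 50 other mitosis genes 1 was higher (2%) and 13 lower (26%) in HSF1-KD Cont (condensin subunits Ncaph and Ncapd2 at -0.38 and -0.34) and 6 higher (12%) and 10 lower (20%) in SSBP1-KD Cont, both below the shares of the brighter symbols (Aspm -0.40, Cenpk -0.39, Spc24 -0.39).

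The calls were also counted by promoter letters, as a description with no test, and the shares of all and of the brighter symbols given above for each comparison apply here too. Of 21 genes with CHR in a window, 5 were lower and 1 higher with heat in SCR, and of 16 with a window but no CHR, 3 were lower and 3 higher. Of 10 genes with an E2F site, 3 were higher and 1 lower, and of 27 without one, 1 was higher and 7 lower. With heat in HSF1-KD, genes with an E2F site gave 3 higher and 0 lower, and those without 2 and 6. Against SCR in Cont, genes with one gave 0 and 4 for HSF1-KD, and 3 and 0 for SSBP1-KD. Those without gave 1 and 8, and 4 and 7. Against SCR in HS, genes with one gave 2 and 4, and 2 and 1, and those without 5 and 6, and 7 and 6. For SSBP1-KD against HSF1-KD, genes with one gave 5 and 0 in Cont and 3 and 0 in HS. Those without gave 7 and 4 in each. With heat in HSF1-KD, genes with CHR gave 1 higher and 5 lower, and those without 4 higher and 1 lower. In SSBP1-KD Cont against SCR, genes with CHR gave 1 higher and 6 lower, and those without 6 higher and 1 lower. In HSF1-KD Cont against SCR, genes with CHR gave 0 higher and 6 lower, and those without 1 higher and 6 lower. In HS, genes with CHR gave 5 higher and 5 lower for HSF1-KD against SCR, and 5 and 6 for SSBP1-KD against SCR. Those without gave 2 and 5, and 4 and 1. For SSBP1-KD against HSF1-KD, genes with CHR gave 3 higher and 3 lower in Cont and 5 and 4 in HS. Those without gave 9 and 1, and 5 and 0. With heat in SSBP1-KD, 1 gene with CHR was lower and 1 without was higher. By E2F site, 1 gene with one was higher there and 1 without was lower. CHR and wave go together in this list, so these counts cannot be told apart from the counts by wave, and 15 of the 21 genes with CHR did not pass the test with heat in SCR.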

How the data were processed

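RNA of 18 samples (200 ng each) was hybridised to Affymetrix Mouse Gene 1.0 ST arrays, 3 per group. The authors deposited normalized log2 signals per probe set, with RMA and Partek 6.5 named in the submitters' processing notes. No raw intensities or counts were used, and no columns of other samples were present. Array medians lay between 7.88 and 7.94, and the lowest correlation within a group was 0.985.

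Probe sets were named from GEO's platform annotation: of 35557, 21789 carry 1 symbol, 1621 several and 12147 none, and 21698 of those with 1 symbol matched a current RefSeq name. The brightest probe set stood for each symbol, and Pcna and Top2a have a second one. limma 3.58.1 in R 4.3.3 fitted 1 mean per group to all probe sets and arrays (12 residual and 2.36 prior degrees of freedom), with Benjamini-Hochberg adjustment over all probe sets at 0.05, and was tested on simulated data. Fold changes are powers of 2 of log2 differences. The members, gene lists, motifs and tests were chosen with earlier results of these data known. For each comparison, values were given for at most the 8 members with the largest change in each direction among those called, for members sharing a role with one of these, and for at most 4 called genes of each other list. Promoter windows and their coordinates are RefSeq's, GRCm38.p6, and those of mouse chromosome 18 are left out. Alternatives covered scaling, probe set choice, samples in the fit, prior, weights, a replicate block, an ordinary analysis of variance, the methods' t-test, a threshold of 0.01 and leaving out each array.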

Additional observations from a re-analysis of the deposited data

Results flagged for a closer look

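The heat response of Ccnf differed between kinds of cell by a test of the difference itself. Its change with heat was higher in HSF1-KD than in SCR by 0.43 (SE 0.06, limma, adjusted p = 0.00403) and in SSBP1-KD than in SCR by 0.54 (SE 0.06, limma, adjusted p = 0.000809), since it fell less in both knockdowns. Both values use the same 6 SCR arrays. Myc, a driver of G1 from the other lists, had a heat response lower in SSBP1-KD than in SCR by the same kind of test. The difference was -0.55 (SE 0.10, limma, adjusted p = 0.0322), with a rise of 0.51 in SCR. Without heat Myc was already higher in SSBP1-KD than in SCR, by 0.60 (limma, adjusted p = 3.31e-05). The alternatives were run for the list members only, so not for Myc. No cause was tested for any of these values.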

How the results depend on the processing

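No called member changed direction under any alternative. Many of these, such as the threshold of 0.01, the t-test and the analysis of variance, keep the log2 difference itself and could not reverse it. Over all called members and alternatives the call was kept 2471 times and lost 332 times. Counts and medians moved 85 times and stayed within their bounds 674 times. For counts of members higher or lower, the compared groups fitted alone gave 5 lower with heat in SCR, 2 and 3 with heat in HSF1-KD, 0 and 0 with heat in SSBP1-KD, 0 and 9 for HSF1-KD against SCR in Cont, 5 higher for the same in HS, 5 lower for SSBP1-KD against SCR in Cont, and 8 and 3 for SSBP1-KD against HSF1-KD in Cont. The methods' t-test after adjustment gave 3 and 5 with heat in SCR, 2 higher with heat in HSF1-KD, 0 and 0 with heat in SSBP1-KD, 1 and 8 for HSF1-KD and 5 and 5 for SSBP1-KD against SCR in Cont, and 5 lower for SSBP1-KD against SCR in HS. Without adjustment, at the methods' threshold, that test called 8 higher and 13 lower with heat in SCR. It called 13 and 9 with heat in HSF1-KD and 6 and 5 in SSBP1-KD. Against SCR it called 3 and 17 for HSF1-KD and 10 and 9 for SSBP1-KD in Cont, and 14 and 16 and 18 and 12 in HS. These unadjusted counts have no share of all symbols beside them, since none was computed. The threshold of 0.01 gave 3 and 4 with heat in SCR, 0 higher with heat in SSBP1-KD, 1 higher for HSF1-KD against SCR in Cont and 5 higher in HS. Array weights gave 11 higher with heat in HSF1-KD, 2 lower with heat in SSBP1-KD and 2 higher for the heat response difference of SSBP1-KD. With heat in SSBP1-KD, quantile normalization gave 0 higher and 2 lower, probe sets with 1 symbol only 1 higher, and ordinary analysis of variance 2 lower. Equal array medians gave 3 higher with heat in SCR.

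Median differences that moved were small. Under quantile normalization the G1/S median was 0.0455 with heat in HSF1-KD, 0.00201 with heat in SSBP1-KD, -0.0171 for HSF1-KD and 0.0703 for SSBP1-KD against SCR in Cont, and the G2/M median -0.075 with heat in SCR and -0.0132 with heat in HSF1-KD. With equal array medians the G2/M median was -0.0699 for HSF1-KD against SCR in Cont, 0.0583 for SSBP1-KD against HSF1-KD in HS and 0.0999 for the heat response difference of SSBP1-KD, where the G1/S median was 0.0198. Array weights gave G1/S medians of 0.00969 with heat in SSBP1-KD, 0.00568 for HSF1-KD against SCR in HS and 0.223 for SSBP1-KD against HSF1-KD in Cont. The mean over probe sets and the least bright probe set both gave a G2/M median of -0.0058 with heat in HSF1-KD, and the latter -0.00664 for HSF1-KD against SCR in HS. Without Ccnd1, Fbxo5 and Gmnn, whose wave is less settled, the G1/S median with heat in SCR was 0.0338. These medians lie near 0, and some change sign.

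Leaving out each array in turn, members higher ran from 3 to 4 and lower from 5 to 8 with heat in SCR, higher from 0 to 1 with heat in SSBP1-KD, from 1 to 3 for HSF1-KD against SCR in Cont and from 5 to 9 in HS. The G1/S median ran from -0.00655 to 0.0334 with heat in SCR, 0.0467 to 0.115 in HSF1-KD and 0.0091 to 0.0566 in SSBP1-KD, -0.0622 to -0.00517 for HSF1-KD against SCR in HS, 0.166 to 0.202 and 0.0799 to 0.131 for SSBP1-KD against HSF1-KD in Cont and HS, and -0.0423 to 0.0197 for the heat response difference of SSBP1-KD. The G2/M median ran from -0.0658 to -0.0422 with heat in SCR, -0.0766 to -0.0306 and -0.0484 to -0.0202 for HSF1-KD against SCR in Cont and HS, -0.0582 to -0.00181 and -0.00431 to 0.0367 for SSBP1-KD against SCR in Cont and HS, -0.00469 to 0.0386 for SSBP1-KD against HSF1-KD in HS, and 0.0427 to 0.0745 and 0.0349 to 0.0897 for the heat response differences of HSF1-KD and SSBP1-KD.

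No source used here says whether the replicate numbers mark a shared batch. Over all probe sets, residuals of 6 of the 45 same-numbered pairs correlated above 0.1, with a range of -0.276 to 0.171. Of the 18 arrays, 6 were closest to one of their own number. The mean residual of the members was positive on replicate 1 and negative on replicate 3 in every group but SSBP1-KD Cont. There it was -0.0398 and 0.0235. With the replicate number as a block, 4 members were higher and 9 lower with heat in SCR, against 5 and 9, and no count of members moved by over 1.5 times. The cause of these changes was not tested, and the number of arrays limits the precision.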
